A study of Mus musculus with 12 samples.

Results

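The circular RNAs (circRNAs) of 5 host genes, Zfp644, Dmxl2, Nlgn1, Epha5 and Mbd5, were followed across mouse retinas with hereditary retinal degeneration. Every entry of the circRNA table assigned to one of these hosts was taken, which gave 38 isoforms of the 12510 circRNAs listed, and the 5 host genes were taken from the 32867 genes of the gene table. The hosts had been chosen because their circRNAs were lost or gained in Pde6b rd1 retina against C3H, so in that contrast their values are described and given no p. Total RNA of whole retina was sequenced in 12 samples, 3 in each of 4 groups. The mutants were Pde6b rd1, taken at day 13 after birth, Pde6b rd10, taken at day 23, and Prph rd2, taken at day 29, and the controls were C3H mice with wild-type Pde6b and Prph2. The controls are recorded as 1 sample each of days 13, 23 and 29, numbered 1, 2 and 3. By this record only C3H sample 1 matches the rd1 samples in age. Between 2 samples of a group the chi-square per gene was 1.75 to 2.94 in C3H and 1.72 to 3.5 in rd1. It was 2.39 to 6.37 in rd10 and 5.43 to 10.9 in rd2. The C3H samples thus differed no more than samples of the same recorded age, and their ages were not tested. According to the study's methods the rd1 line is congenic with C3H and the rd10 line is on C57Bl6/J, while for rd2 the methods give C3H and the labels C57BL6/J. Pde6b encodes the beta subunit of the rod phosphodiesterase, and the rd2 allele lies in Prph2, which encodes a structural protein of photoreceptor outer segments.

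A circRNA forms when the end of an exon is spliced back to the start of the same or an earlier exon, and it is counted by reads that cross this back-splice junction. The closed ring has no free ends and is often long-lived, and many circRNAs are abundant in neural tissue, the retina included. Reads counted on the host gene come mainly from its linear transcripts, so a circRNA can be set against its host in the same library.

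The 38 isoforms comprise 19 of Dmxl2, 6 each of Zfp644 and Mbd5, 5 of Epha5 and 2 of Nlgn1, with 1813 junction reads in all. Both ends of all 38 lay at annotated exon ends of a single GENCODE vM21 transcript, with AG before the first exon and GT after the last. Of all circRNAs listed, 95.8% had both ends at annotated exon ends. For these, neither a shared transcript nor AG and GT was counted. A circBase name was given for 20 of them, and the other isoforms are named here by their exons. Only 4 isoforms had reads in all 12 samples, and 9 had fewer than 5 reads in all.

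The junctions that the results turn on are shown as 15 bases of the last exon in lower case followed by 15 bases of the first exon in capitals, 5′ to 3′ in the sense of the gene, read from GRCm38. The 6 Zfp644 junctions are shown because they combine 2 first exons with 3 last exons, and each can be compared with the rings that share its first or its last exon.
mmu_circ_0001383, exons 2 to 5: tgactgtgcactcagGCTTGATTTAAATTT
mmu_circ_0001381, exons 2 to 6: cattctccgatgcagGCTTGATTTAAATTT
Zfp644 exons 2 to 4: aacgagttagaaaagGCTTGATTTAAATTT
mmu_circ_0001382, exons 3 to 5: tgactgtgcactcagACTAAAGGTGTTAAA
mmu_circ_0011956, exons 3 to 6: cattctccgatgcagACTAAAGGTGTTAAA
mmu_circ_0011959, exons 3 to 4: aacgagttagaaaagACTAAAGGTGTTAAA
The Dmxl2, Nlgn1, Epha5 and Mbd5 junctions below are those with the most reads or the largest difference between rd1 and C3H.
mmu_circ_0015679, Dmxl2 exons 31 to 40: cctaaaccgtacatgCTGGGCTCTTCTGCA
mmu_circ_0015680, Dmxl2 exons 31 to 36: cagagagtcgaaaagCTGGGCTCTTCTGCA
mmu_circ_0010603, Nlgn1 exon 3: tcccaactgaagatgGATATAGACCCACTG
mmu_circ_0001361, Epha5 exons 4 to 5: ccacgaatcaagcagTGTGCAGACCTGGGT
mmu_circ_0001362, Epha5 exon 3: atggtacctgccaagTGGGAAGAGATTGGT
mmu_circ_0009988, Mbd5 exons 5 to 7: cccgaggaagggaagGTGGTTCAAGCCTGC
mmu_circ_0009989, Mbd5 exons 5 to 8: gaaaaggagcagaaaGTGGTTCAAGCCTGC

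Gene reads ran from 17049495 to 24755890 a sample, and circRNA junction reads from 9819 to 25009. Junction reads per 1000000 gene reads were lower in rd1 (576 to 685) than in C3H (734 to 917), rd2 (771 to 895) and rd10 (966 to 1046), so levels are given per 10000 junction reads and per gene read of the host. The rd1 samples held no reads of the Y-linked gene Ddx3y and between 64914 and 83716 of Xist, while the C3H samples held 1481 to 2005 and 8 to 10, so sex and genotype cannot be told apart in rd1 against C3H. The rd2 samples held 757 to 907 reads of Ddx3y and 37187 to 47452 of Xist, and the rd10 samples 1056 to 1696 and 13428 to 18861. The Xist ranges did not overlap between any groups. The part of sex therefore cannot be told apart from that of genotype in the other comparisons either. Pde6b itself had 24335 to 29129 reads in C3H and 4937 to 6253 in rd1. Summed rod markers (10 genes, none at 0 in any sample) lay between 13819 and 14023 CPM (reads per 1000000 gene reads, after TMM scaling of the libraries) in rd1, 18215 and 19431 in rd2, 23119 and 24099 in rd10 and 27483 and 28367 in C3H. Summed microglial markers (8 genes) lay between 182 and 203 CPM in rd10 and between 52.5 and 63.2 CPM in the other groups. Other marker sums were also lower in rd1 than in C3H. For cones they were 351 to 363 against 516 to 523 CPM, and for Mueller glia 1541 to 1582 against 2917 to 2977. Ganglion cell markers summed to 886 to 915 against 1213 to 1224. Bipolar cell markers overlapped (2120 to 2136 against 2086 to 2131), and cone markers were highest in rd10 (770.5 to 788.2). Fewer cells of a type and less RNA per cell cannot be told apart in whole retina, and the part of cell composition in the values below was not tested. The labels do not say whether the replicates came from separate animals, so p-values measure only the spread between these samples.

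Zfp644 encodes a zinc finger protein that binds the histone methyltransferases G9a and GLP, and in human it has been linked to high myopia. The gene lies at chr5:106616739-106697287 on the minus strand (GRCm38), 1.69 Mb from Pde6b. Its circRNA mmu_circ_0001383 joins exon 5 back to exon 2 (chr5:106634831-106666845), holds 3600 spliced bases of which 3583 are coding, and had no read in any rd1 library. The C3H samples had 41, 45 and 22 junction reads, the rd1 samples 0, 0 and 0, the rd2 samples 30, 45 and 42 and the rd10 samples 44, 27 and 26. No rd1 value came near those of any other group, which overlapped one another. Per 10000 junction reads the level was 19.8 ± 4.37 (SD, n = 3) in C3H, 19.3 ± 2.78 in rd2 and 15.0 ± 2.58 in rd10. Against a floor of 3 reads over the rd1 group, the level in rd1 was at least 24.2-fold lower than in C3H. It was 0 of the 139 Zfp644 junction reads in rd1, which allows a share of up to 2.16%, against 32.8% of 329 in C3H (95% Wilson interval 28.0 to 38.1%). These limits take only counting error into account, since the reads carry no molecular identifiers.

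Zeros were more frequent in the circRNA table than counting alone gives. Among circRNA values for which the other 2 samples of the group predict 8 to 16 reads, 4.44% were 0, where a Poisson count gives 0.00684%. At 16 to 32 predicted reads 1.91% were 0, where a Poisson count gives 1.67e-06%. Zeros over a whole group also occurred among circRNAs for which the other groups predict at least 30 reads. They were 0 of 289 in C3H, 1 of 171 in rd1, 5 of 371 in rd10 and 5 of 336 in rd2. The 1 in rd1 was mmu_circ_0001383. Single zeros of weak isoforms are given here as counts only. The other 9 libraries predict 65.3 reads of mmu_circ_0001383 over the rd1 group. This describes a value on which its host was chosen.

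Both splice sites of the missing ring were found in other rings in rd1. Its donor, at the end of exon 5, also forms mmu_circ_0001382 (exons 3 to 5, chr5:106634831-106638635), which had 47, 43 and 45 reads in C3H, 47, 20 and 28 in rd1, 37, 30 and 41 in rd2 and 25, 32 and 60 in rd10. Per 10000 junction reads this was 25.9 ± 5.84 in C3H and 25.5 ± 5.56 in rd1, with overlapping samples. Per 1000 Zfp644 gene reads it was 7.03 ± 1.03 in C3H and 5.22 ± 1.65 in rd1. The log2 fold change of rd1 over C3H per host gene read was -0.41 ± 0.25 (SE). Its acceptor, at the start of exon 2, also forms mmu_circ_0001381 (exons 2 to 6, chr5:106619540-106666845), which had 7, 0 and 7 reads in C3H, 0, 5 and 6 in rd1, 7, 12 and 9 in rd2 and 8, 0 and 12 in rd10. With the rare ring of exons 2 to 4 added, exon 2 was the first exon of 14 reads in C3H and 13 in rd1 outside mmu_circ_0001383.

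The remaining Zfp644 rings start at exon 3. For mmu_circ_0011956, exons 3 to 6 (chr5:106619540-106638635), the counts were 19, 16 and 18 reads in C3H, 15, 7 and 7 in rd1, 20, 15 and 29 in rd2 and 12, 9 and 23 in rd10, and rd1 over C3H had a log2 fold change of -0.51 ± 0.38 (SE). The shortest of these rings, mmu_circ_0011959 of exons 3 to 4 (chr5:106635610-106638635), had 6, 8 and 5 reads in C3H, 2, 0 and 0 in rd1, 0, 0 and 0 in rd2 and 2, 1 and 6 in rd10. By counting error alone, against a floor of 3 reads over the rd2 group, its level in rd2 was at least 7.11-fold lower than in C3H. The ring was counted in every rd10 sample. Zeros were more frequent in these data than counting gives, so the ring has no firm bound. Its log2 fold change of rd1 over C3H was -2.70 ± 1.06. The gene itself overlapped between C3H and each mutant, at 22.7, 21.8 and 20.8 FPKM in C3H, 21.7, 21.2 and 22.5 in rd1, 23.0, 21.8 and 23.7 in rd2 and 23.5, 22.3 and 24.2 in rd10. FPKM divides reads by gene length and library size.

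**Figure D1:**
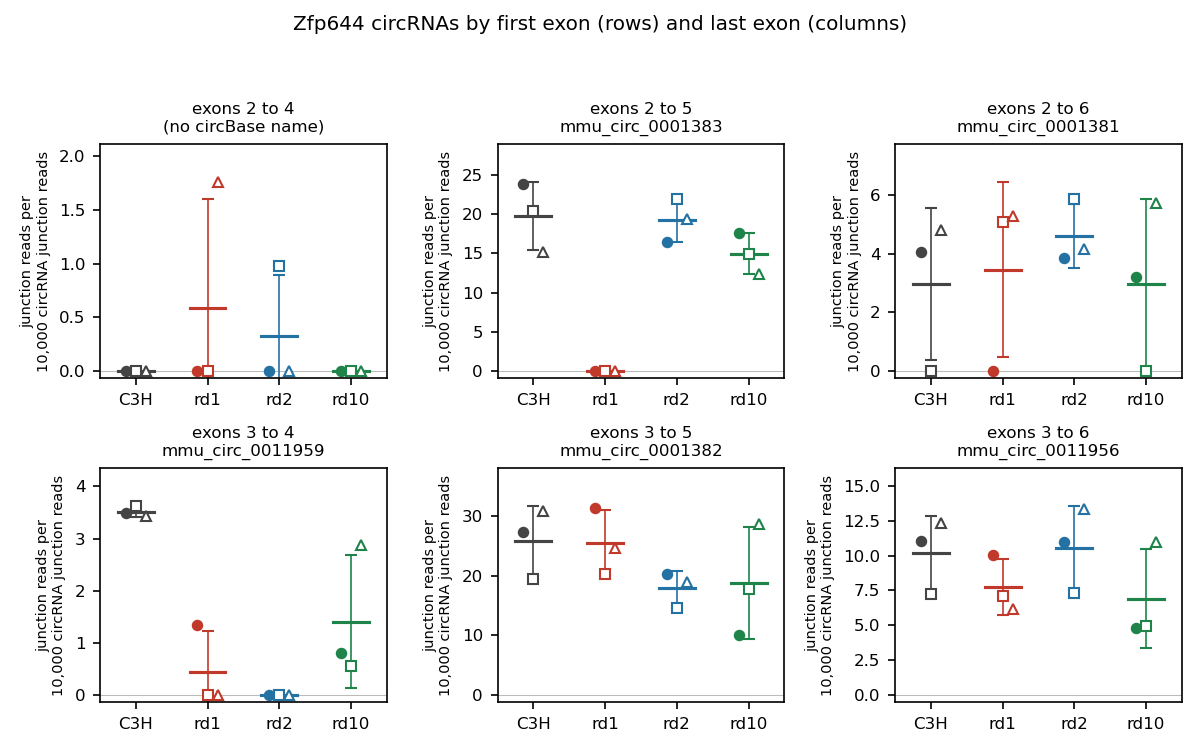
Junction reads of the 6 Zfp644 circRNAs per 10,000 circRNA junction reads, with rows by first exon and columns by last exon, 3 samples a group (circle, square and triangle for samples 1, 2 and 3), bars for the mean and the SD, cut at 0. The ring of exons 2 to 5 lay at 0 in the 3 rd1 samples and at 15.0 to 19.8 on average in the other groups, while the rings sharing its first or last exon were counted in rd1.

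Dmxl2 encodes rabconnectin-3 alpha, a large WD-repeat protein of synaptic vesicles that takes part in assembly of the V-ATPase, the proton pump. Its main ring, mmu_circ_0015679, holds exons 31 to 40 of 44 (chr9:54374653-54382721, minus strand), with 1084 spliced bases, all coding. Reads were 19, 18 and 16 in C3H, 0, 0 and 3 in rd1, 15, 14 and 23 in rd2 and 34, 23 and 20 in rd10. All rd1 samples lay below all others. The log2 fold change of rd1 over C3H was -3.62 ± 0.72 (SE), a 12.3-fold difference. The 3 reads in rd1 were all in sample 3, and the value was -2.96 without rd1 sample 1, and -7.28 and -5.06 with limma on log2 TPM with 1 or 10 added. The ring made up 67.9% of the 78 Dmxl2 junction reads in C3H (57.0 to 77.3%) and 7.69% of the 39 in rd1 (2.65 to 20.3%).

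A shorter ring starts at the same exon 31 acceptor and ends at exon 36. This ring, mmu_circ_0015680 (chr9:54378714-54382721), had 0, 3 and 2 reads in C3H, 5, 3 and 3 in rd1, 0, 5 and 3 in rd2 and 2, 0 and 4 in rd10. Its rd1 counts were as high as those of the other groups, so reads on the shared acceptor remained in rd1, although the counts are small. The gene had 53.6, 53.3 and 51.1 FPKM in C3H, 62.4, 62.4 and 64.1 in rd1, 57.3, 55.2 and 60.8 in rd2 and 48.1, 47.6 and 51.1 in rd10. It was thus higher in every rd1 than in every C3H sample, while its main ring was lower. On the CPM scale the rd1 and C3H samples did not overlap, in either direction, for 51.0% of the 18310 genes tested.

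Most other Dmxl2 rings were rare, and several came from a single library. A ring of exons 16 to 23 (chr9:54403957-54423349) had 37 reads in rd2 sample 3 and 0 in the other 11 samples. Another, of exons 21 to 29, had 11 reads, also all in rd2 sample 3. Over all hosts, 4315 circRNAs had reads in 1 sample only, and 37 of these had at least 10 reads there. The 90 Dmxl2 junction reads of rd2 sample 3, against 25 and 32 in the other rd2 samples, include these 2 rings. In rd2, mmu_circ_0015679 was 35.4% of the Dmxl2 junction reads, against 61.1% in rd10. The rd2 total includes the 2 rings of sample 3. By sample the share was 25.6 to 60.0% in rd2 and 54.1 to 66.7% in rd10, which overlap. The remaining named rings, mmu_circ_0015681 (exons 23 to 30) and mmu_circ_0015686 (exons 2 to 6), ranged from 0 to 7 and from 0 to 5 reads a sample, with overlapping groups.

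Nlgn1 encodes neuroligin 1, a postsynaptic adhesion protein that binds presynaptic neurexins. Its main ring, mmu_circ_0010603, is exon 3 alone (chr3:26133242-26134052, minus strand), 811 bases of which 493 are coding. Reads were 8, 9 and 3 in C3H, 9, 17 and 21 in rd1, 6, 9 and 5 in rd2 and 2, 1 and 6 in rd10. Per 10000 junction reads the level was 13.9 ± 6.89 in rd1, 3.60 ± 1.36 in C3H, 3.33 ± 1.05 in rd2 and 1.41 ± 1.27 in rd10. The log2 fold change of rd1 over C3H was 1.66 ± 0.47. Per host gene read it was 0.90 ± 0.47, and the gene itself was higher in every rd1 than in every C3H sample, at 7.68, 7.76 and 8.28 FPKM in rd1 against 5.92, 5.59 and 5.40 in C3H. In either direction 51.0% of the 18310 genes tested did not overlap between rd1 and C3H on the CPM scale. The rd2 samples had 5.91, 5.54 and 6.73 FPKM and the rd10 samples 4.73, 4.45 and 4.98. The second ring, exons 2 to 3, had 6 reads in rd1 sample 2 and 1 in rd2 sample 2.

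Epha5 encodes a receptor tyrosine kinase that binds A-type ephrins and takes part in guiding retinal axons. It lies at chr5:84054761-84417382, 23.97 Mb from Pde6b on the same chromosome. Its exon 3 forms mmu_circ_0001362 (chr5:84331228-84331891, 664 bases, all coding), which had 4, 7 and 1 reads in C3H, 11, 11 and 8 in rd1, 5, 2 and 6 in rd2 and 4, 2 and 2 in rd10. All rd1 samples lay above all others in reads, and the log2 fold change over C3H was 1.73 ± 0.58. Exons 4 to 5 form mmu_circ_0001361 (chr5:84233583-84237554, 492 bases), which had 11, 10 and 5 reads in C3H, 16, 11 and 8 in rd1, 10, 1 and 8 in rd2 and 0, 5 and 2 in rd10, and its log2 fold change of rd1 over C3H was 0.81 ± 0.43. Per host gene read these values were 0.99 ± 0.60 and 0.08 ± 0.45. The gene had 8.43, 8.59 and 8.30 FPKM in C3H, 11.9, 11.7 and 11.8 in rd1, 8.78, 8.98 and 9.84 in rd2 and 6.47, 6.24 and 6.55 in rd10. The other 3 Epha5 rings had between 5 and 14 reads in all.

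Mbd5 encodes a protein with a methyl-CpG-binding domain that interacts with the PR-DUB histone deubiquitinase complex. Of its 6 rings, 4 share the acceptor of exon 5, and of these only the ring that ends at exon 8 had reads in all rd1 samples and in no C3H sample. This ring, mmu_circ_0009989 (chr2:49272041-49298729, plus strand, 2506 bases, all coding), had 0, 0 and 0 reads in C3H, 2, 4 and 3 in rd1, 0, 1 and 3 in rd2 and 3, 0 and 1 in rd10. By counting error alone, against a floor of 3 reads over the C3H group, its level in rd1 was at least 4.47-fold higher, from 9 reads. Zeros were more frequent in these data than counting gives, so the ring has no firm bound. Its neighbour mmu_circ_0009988, exons 5 to 7, had 0, 6 and 3 reads in C3H, 0, 2 and 3 in rd1, 3, 4 and 0 in rd2 and 7, 5 and 3 in rd10. The rings ending at exons 6 and 9 had 4 reads each, all in C3H. The gene had 5.20, 4.93 and 4.99 FPKM in C3H, 6.68, 6.16 and 6.53 in rd1, 5.39, 4.69 and 5.33 in rd2 and 5.93, 5.83 and 6.08 in rd10.

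**Figure D2:**
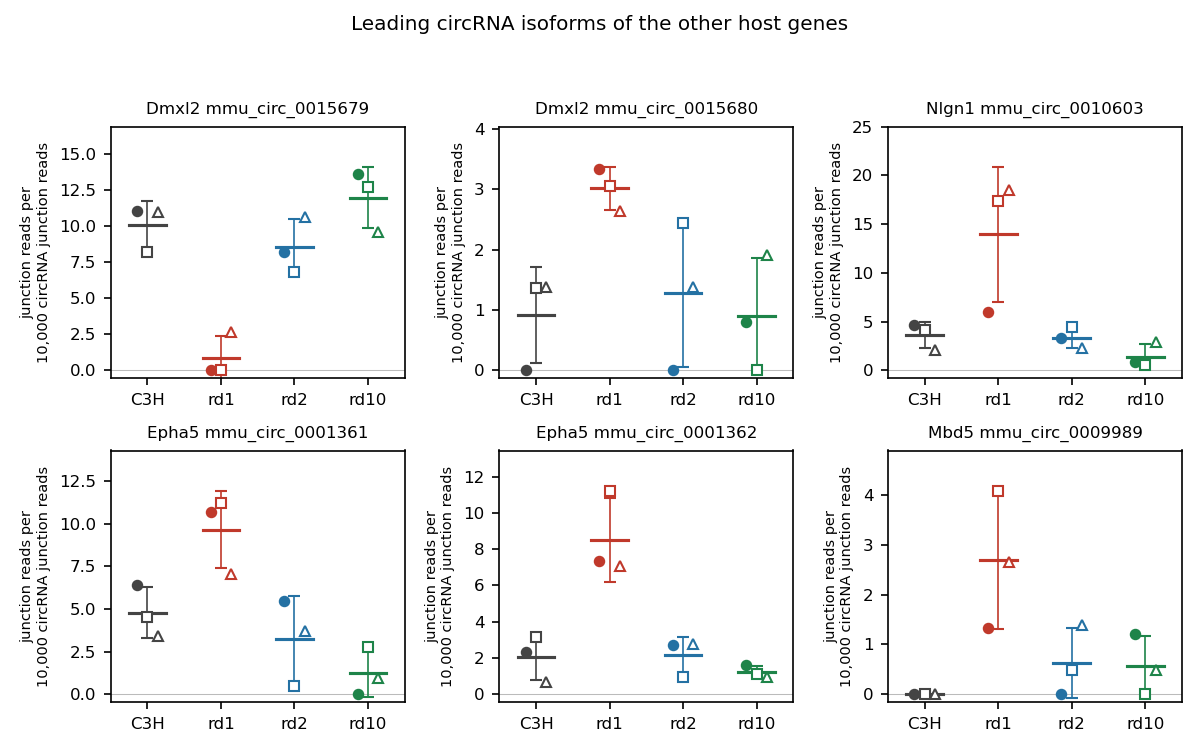
Junction reads of 6 circRNAs of Dmxl2, Nlgn1, Epha5 and Mbd5 per 10,000 circRNA junction reads in the 4 groups, with symbols for samples 1, 2 and 3 and bars for the mean and the SD, cut at 0. The Dmxl2 ring of exons 31 to 40 was lowest in rd1, and the Nlgn1 ring and both Epha5 rings were highest on average in rd1.

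Of the 38 isoforms, 12 had at least 2 reads in at least 3 of the 6 samples of rd1 and C3H. Among these, 3 were higher and 3 lower in rd1 at an unadjusted p under 0.05 with a fold change of at least 2 in edgeR's quasi-likelihood test, where 6.37% of the 1791 circRNAs tested were called. Since the hosts were chosen on this contrast, nothing is read from that count. Over all circRNAs tested the median log2 fold change of rd1 over C3H was -0.18 on this scale and -0.55 per host gene read. Without each C3H or rd1 sample in turn, the log2 fold change of mmu_circ_0001383, with 3 reads assumed in rd1, ran from -4.72 without C3H sample 3 to -3.82 without rd1 sample 1, an alternative added after the data were seen.

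The contrast of rd10 with rd2 was not used in the choice of hosts, and it tests the same isoforms between the other mutants. In it, 14 isoforms had enough reads. Of these 1 was called, where 10.1% of the 2452 circRNAs tested were. It was the Dmxl2 ring of exons 7 to 8 (chr9:54458854-54461117), named after its values were seen, with 4, 4 and 2 reads in rd10 and 0, 1 and 0 in rd2. It passed the filter on low counts only through rd10, the group where it is high, so the call gives no support. Its log2 fold change was 2.88 ± 1.31, with an adjusted p of 0.394 in edgeR's quasi-likelihood test. No isoform passed an adjusted p of 0.05, and the median of the 14 was -0.51, against 0.04 over all circRNAs tested. In the same edgeR test the log2 fold changes of rd10 over rd2 were 0.51 ± 0.28 for mmu_circ_0015679 (adjusted p = 0.614), -0.33 ± 0.24 for mmu_circ_0001383 (adjusted p = 0.752), -1.18 ± 0.74 for mmu_circ_0010603 (0.699), -0.74 ± 0.83 for mmu_circ_0001362 (0.873), -1.40 ± 0.96 for mmu_circ_0001361 (0.717) and 0.99 ± 0.92 for mmu_circ_0009988 (0.838).

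Set against the reads of its host, the Dmxl2 ring of exons 31 to 40 had the smallest p of the 14 between these mutants. It had 1.85 ± 0.346 reads per 1000 Dmxl2 gene reads in rd10 and 0.935 ± 0.208 in rd2, a log2 fold change of 0.98 ± 0.28 with an adjusted p of 0.0991 in edgeR's test, and under the 2-fold minimum. Over the 2444 circRNAs tested per host read the median was 0.32 and 10.8% were called. Of the 14 isoforms, 1 was called, the ring of exons 7 to 8, at 3.27 ± 1.28 with an edgeR adjusted p of 0.223, and the median was -0.02. Against C3H, whose samples the choice of hosts used, the log2 fold change of mmu_circ_0015679 per host read was 0.64 ± 0.28 in rd10 and -0.34 ± 0.34 in rd2.

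All junction reads of a host were also set against 1000 of its gene reads. Zfp644 gave the most in C3H, rd2 and rd10, while in rd1 its samples overlapped those of Nlgn1. Zfp644 had 17.0 ± 1.90 in C3H, 7.68 ± 1.74 in rd1, 13.9 ± 1.39 in rd2 and 13.9 ± 4.22 in rd10. Dmxl2 had 1.76 ± 0.217 in C3H, 0.792 ± 0.236 in rd1, 2.60 ± 1.74 in rd2 and 3.05 ± 0.283 in rd10. For both hosts all rd1 samples lay below all C3H samples, as did the junction reads of the whole libraries per gene read. Over all circRNAs tested the median log2 fold change of rd1 over C3H per host gene read was -0.55. The hosts were chosen on this contrast, and how many of all hosts separate in this way was not counted. In Nlgn1, Epha5 and Mbd5 the rd1 and C3H samples overlapped. Nlgn1 had 4.05 ± 1.70 in C3H, 8.92 ± 4.54 in rd1, 3.70 ± 1.72 in rd2 and 2.22 ± 1.97 in rd10. Epha5 had 4.61 ± 1.84, 5.84 ± 1.19, 3.89 ± 1.79 and 3.40 ± 0.367 in these groups, and Mbd5 3.11 ± 1.92, 2.01 ± 1.16, 2.13 ± 1.31 and 2.89 ± 0.809. Between rd10 and rd2 the 2-sided exact permutation test gave p from 0.4 to 1 for the 5 hosts and 1 for each after adjustment over them, in a design whose smallest p is 0.1.

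**Figure D3:**
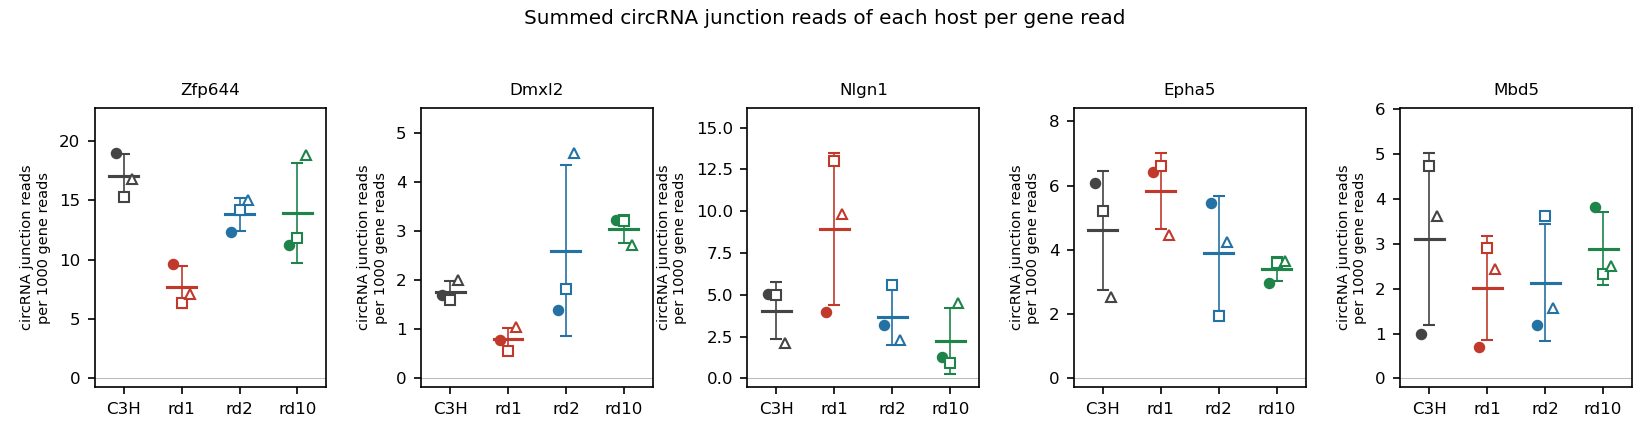
Summed circRNA junction reads of each host gene per 1000 reads of that gene, by group, with symbols for samples 1, 2 and 3 and bars for the mean and the SD, cut at 0. Zfp644 and Dmxl2 lay lower in all rd1 samples than in all C3H samples, as did the junction reads of the whole libraries per gene read. Sample 3 of rd2 stood at 4.60 for Dmxl2.

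The host genes themselves were tested in the contrasts that leave rd1 out. In rd10 against C3H, Epha5 fell by 0.45 ± 0.04 on the log2 scale (adjusted p = 9.36e-09, edgeR's quasi-likelihood test), Nlgn1 fell by 0.31 ± 0.05 (3.87e-05) and Dmxl2 fell by 0.16 ± 0.04 (6.15e-04). Mbd5 rose by 0.18 ± 0.04 (0.00106), and Zfp644 had 0.04 ± 0.04 (0.363). The samples of the 4 genes that changed did not overlap on the CPM scale, as for 58.9% of all genes tested, and none reached the fold of 1.5 that a call takes, where 23.9% of 18704 genes were called. At an adjusted p under 0.05 without a fold minimum, 27.7% of these 18704 genes were higher and 26.3% lower in rd10. The levels of each sample are those given for each host above.

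In rd2 against C3H none of the 5 host genes passed an adjusted p of 0.05 in edgeR's test, with Dmxl2 alone at an unadjusted p under 0.05 (log2 fold change 0.10 ± 0.05, adjusted p = 0.208). Without rd2 sample 2 it had 0.14 with an adjusted p of 0.0308. In this comparison 4.57% of 18581 genes were called. Between rd10 and rd2, Epha5 was lower in rd10 by a log2 fold change of -0.54 ± 0.06 (adjusted p = 3.21e-06), Nlgn1 by -0.38 ± 0.07 (8.06e-04) and Dmxl2 by -0.26 ± 0.05 (9.55e-04). Mbd5 was higher by 0.19 ± 0.06 (adjusted p = 0.0286), and this adjusted p was 0.107 without rd2 sample 2, 0.0887 without rd10 sample 1 and 0.0883 without rd10 sample 3. None reached 1.5-fold, where 19.5% of 19198 genes were called. At an adjusted p under 0.05 without a fold minimum, 21.2% of these 19198 genes were higher and 18.9% lower in rd10. In rd1 against C3H the log2 values, not tested, were 0.41 ± 0.03 for Epha5, 0.41 ± 0.04 for Nlgn1, 0.29 ± 0.04 for Mbd5, 0.18 ± 0.03 for Dmxl2 and -0.07 ± 0.03 for Zfp644. These comparisons share the C3H samples.

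**Figure D4:**
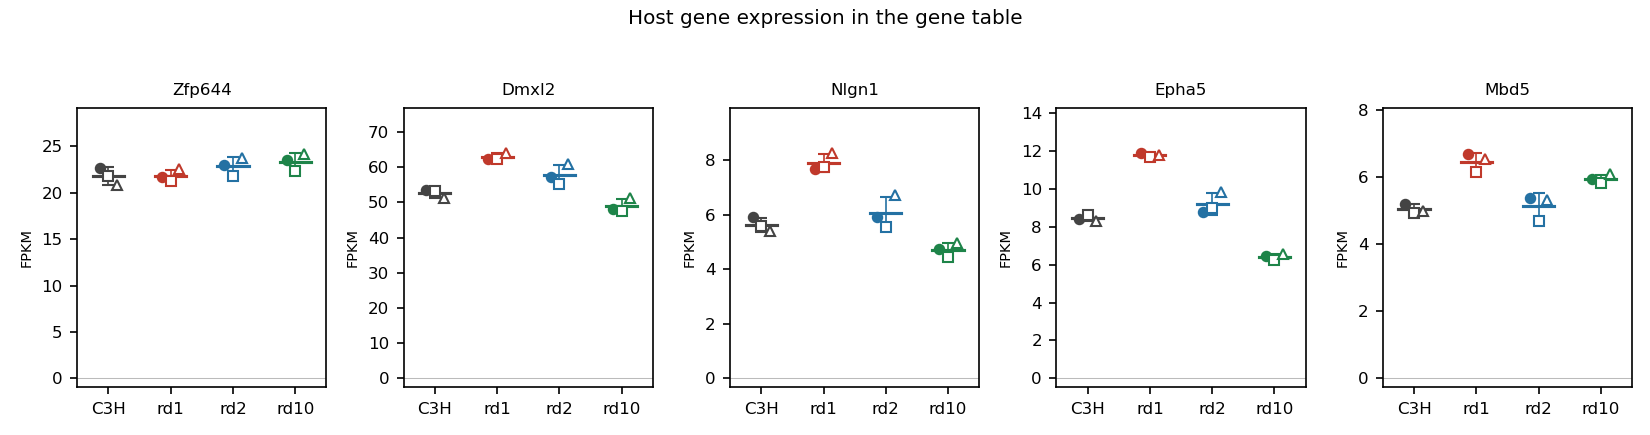
FPKM of the 5 host genes in the 4 groups, with symbols for samples 1, 2 and 3 and bars for the mean and the SD. Epha5 and Nlgn1 lay above C3H in all rd1 samples and below C3H in all rd10 samples, and Zfp644 overlapped C3H in every mutant. On the CPM scale 15.6% of 17917 genes lay on opposite sides of C3H in rd1 and rd10.

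Genes that work with these hosts were read from lists, gene by gene with edgeR and Benjamini-Hochberg adjustment, and called by the same rule as the hosts. Over all genes tested 15.0% were called in rd1, 23.9% in rd10 and 4.57% in rd2, each against C3H, and the lists are read against these shares. Of 21 neuroligin and neurexin adhesion genes, 0 were called in rd1 against C3H, 1 lower in rd10 and 0 in rd2. The one in rd10 was Cbln1, a secreted neurexin ligand (log2 fold change -0.71 ± 0.08, adjusted p = 3.19e-07). Of 20 Eph receptors and ephrins tested, 0 were called in rd1 or rd2, and in rd10 the ligand Efna1 rose (1.00 ± 0.15, 7.89e-06) while Efna2 fell (-0.70 ± 0.13, 8.40e-05). Of 21 V-ATPase and rabconnectin genes, Atp6v1g2, a pump subunit, was lower in rd1 (-0.61 ± 0.05, 2.17e-09), and Atp6v0c, the subunit of the membrane ring, was higher in rd10 (0.88 ± 0.04, 7.50e-13). At an adjusted p under 0.05 without a fold minimum, 15 of these 21 were lower and 1 higher in rd1, with a median of -0.22, against -0.01 over all genes. By that measure 21.3% of the 18310 genes tested were lower and 21.9% higher. In rd10 against C3H, 7 of the 21 were higher and 5 lower, with a median of 0.04. There 27.7% of the 18704 genes tested were higher and 26.3% lower.

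Of 15 genes of PR-DUB and methyl-CpG binding, Asxl3, a PR-DUB cofactor, was higher in rd1 (0.91 ± 0.05, adjusted p = 1.38e-12), and in rd10 Kdm1b, a histone demethylase, was lower (-1.16 ± 0.06, 5.96e-13) and Mbd4, a DNA glycosylase, higher (0.59 ± 0.10, 4.72e-05). Of 10 genes of the G9a and GLP complex, 0 were called in rd1 and Suv39h2, a histone methyltransferase, was lower in rd10 (-0.88 ± 0.06, 2.79e-10). Of 24 genes of circRNA formation and decay, Mbnl3, a splicing factor, was higher in rd10 (0.81 ± 0.26, adjusted p = 0.0114). At an adjusted p under 0.05 without a fold minimum 16 of the 24 were higher and 4 lower in rd1, with a median of 0.19. Of the 18310 genes tested there, 21.9% were higher and 21.3% lower. In rd10 against C3H, 7 of the 24 were higher and 11 lower, with a median of -0.07. By the same measure 8 of the 10 G9a and GLP genes were lower and 1 higher in rd10, with a median of -0.28. Of the 18704 genes tested in rd10, 26.3% were lower and 27.7% higher. In rd1 the G9a and GLP genes went the other way, with 6 higher, 0 lower and a median of 0.11. Counts by this measure for the other lists are not given here. The part of these genes in the circRNA values was not tested.

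Between rd10 and rd2, where 19.5% of all genes tested were called, the same lists gave 1 called neuroligin and neurexin gene (Cbln1, -0.68), 2 Eph genes (Efna1, 1.23, and the receptor Epha2, 0.75) and 1 V-ATPase gene (Atp6v0c, 0.85). They also gave Kdm1b (-0.71), Suv39h2 (-0.97) and Mbnl3 (0.79), each a log2 fold change of rd10 over rd2.

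The circRNAs whose levels over the 12 samples were most like mmu_circ_0001383 were rings of Tbc1d32 (Pearson r = 0.926), Dmxl2 (mmu_circ_0015679, 0.913) and Mtus2 (0.898). Those most like mmu_circ_0015679 were rings of Gucy2f (0.953) and Uimc1 (0.922), then mmu_circ_0001383. For the Nlgn1 ring they were rings of Tent4a (0.947), Med13 (0.860) and Ppm1h (0.852), and for mmu_circ_0001362 of Epha5 they were rings of Med13 (0.914), Tmem132d (0.878) and Gm45062 (0.874). The ring mmu_circ_0009989 was most like rings of Haus6 (0.864), Ube2k (0.827) and Birc2 (0.780). Among genes, Epha5 was most like Arrdc3 (0.993), Nlgn1 like Rdx (0.994), Dmxl2 like Pou2f1 (0.991), Zfp644 like Clock (0.960) and Mbd5 like Gm44044 (0.956). These correlations describe 12 samples that share libraries and groups. They include the rd1 and C3H samples on which the hosts were chosen, so the likeness of the Zfp644 and Dmxl2 rings restates that choice.

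Inverted matches between the flanks of the isoforms were also counted. Exact runs of at least 12 bases between the 1000 bases on each side were found for 7 of the 38, and for 27.1% of the 1791 circRNAs tested. Neither mmu_circ_0001383 nor mmu_circ_0015679 had one, which says only that no such run lies in these windows.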

How the data were processed

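Reads from directional libraries depleted of ribosomal RNA were aligned by the authors to GRCm38 and counted per gene with HTSeq 0.11.2, and these gene counts were deposited without normalization. The deposited FPKM values were made by the authors from the counts by gene length and library size. The circRNA junction counts were deposited by the authors from TopHat2 2.1.1 alignments and CIRCexplorer, which kept candidates with at least 2 junction reads. The deposited TPM values of circRNAs are the same counts scaled to 1000000 junction reads in each library, with no correction for length, and served only in alternatives with limma.

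Gene and junction counts were tested with edgeR 4.0.16 in R 4.3.3, with TMM normalization, on the 6 samples of a comparison, and p-values were adjusted by the Benjamini-Hochberg method over all features tested. Genes passed edgeR's filter on low counts, and circRNAs had at least 2 reads in at least 3 of the 6 samples. Calls took an unadjusted p under 0.05 and a fold of 1.5 for genes or 2 for circRNAs. Junction counts per host read used the log host gene count as offset. The steps were tested on simulated data. Exons came from GENCODE vM21 and sequence from GRCm38, through pysam 0.24.0. Other tools were Python 3.11.15, pandas 2.3.3, scipy 1.17.1 and matplotlib 3.10.9. Samples were grouped by their labels. The members and lists were chosen with earlier results of these data known. Named isoforms had at least 20 reads over the 12 samples, at most 6 a host, or were at 0 in all samples of C3H or rd1 and counted in all of the other with at least 5 reads. The Dmxl2 rings of exons 7 to 8 and 21 to 29 and the other rings below that number were named after their values were seen. List genes named were up to 4 called ones with the smallest p. Not every list gene is reported here. The alternatives were other size factors, filters, thresholds and scales, DESeq2 1.42.0, limma 3.58.1, all 12 samples in 1 fit, the replicate number as a block and each replicate left out.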

Additional observations from a re-analysis of the deposited data

Results flagged for a closer look

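Host gene levels lay on opposite sides of C3H in every sample of a pair of mutants for 3 of the 5 hosts, on the CPM scale. Epha5 was above C3H in all rd1 and below it in all rd10 samples, and its mean in rd1 was 1.80 times that in rd10. Nlgn1 did the same, with a ratio of 1.64, and Dmxl2 with a ratio of 1.26. Of 17917 genes tested against C3H in both, 15.6% lay on opposite sides, in either direction. The difference between rd1 and rd10 was not tested. Epha5 and Dmxl2 were also above C3H in all rd2 samples, and their means in rd10 were 0.680 and 0.826 times those in rd2, a difference that the contrast of rd10 with rd2 tested. Of 18110 genes, 5.04% lay on opposite sides in rd10 and rd2, in either direction.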

How the results depend on the processing

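The counts over all features moved with the processing. With limma on log2(FPKM + 1), 2035 genes were called in rd10 against C3H (4479 in the main analysis), 166 in rd2 (850), 1778 between rd10 and rd2 (3752) and 1097 in rd1 (2749). In rd2 against C3H, 1300 were called without a filter and 384 at an adjusted p. Between rd10 and rd2, 376 circRNAs were called without a filter, 124 with at least 5 reads and 56 at an adjusted p (248), and per host read 406, 141 and 63 (264). In rd1 against C3H, 201, 42 and 3 were called (114), and 69 with DESeq2. Of the 114, 20 were higher and 94 lower, which became 34 and 77 without TMM, and 10 and 156 of 166 with library sizes from gene reads. Leaving out each replicate gave 4462 to 4740, 745 to 1435 (the highest without rd2 replicate 2), 3737 to 3986 and 2734 to 2861 genes in these 4 comparisons, 142 to 212 circRNAs between rd10 and rd2, 160 to 231 per host read and 47 to 136 in rd1. The low ends came without any 1 C3H replicate in rd1 (47 to 64) and without any 1 rd10 replicate between rd10 and rd2 (142 to 158), where lower calls then outnumbered higher ones.

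With the replicate number as a block, 75 circRNAs were called in rd1 and 173 between rd10 and rd2, and 195 per host read. Whether the numbers pair the samples was not settled. Over genes, same-numbered samples of rd10 and rd2 correlated at 0.0332, 0.229 and 0.221, against at most 0.025, -0.0272 and -0.00138 for other numbers. Over circRNAs they correlated at -0.042, -0.0274 and -0.0219. Those of rd1 and C3H correlated at 0.095, 0.0609 and 0.153 over genes and at 0.0329, 0.0189 and -0.0416 over circRNAs. As a hint from the data, each number correlated best with itself over genes in rd1 and C3H and in rd10 and rd2. The block turned the value of mmu_circ_0001362 per host read from -0.01 to 0.01, and added TMM factors turned it to 0.12.

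Leaving out replicates moved the rd10 minus rd2 difference in junction reads per 1000 gene reads between -2.38 and 1.43 for Zfp644, -0.160 and 1.44 for Dmxl2, -2.62 and -0.522 for Nlgn1, -1.46 and 0.302 for Epha5 and 0.285 and 1.5 for Mbd5. Values near 0 changed sign without 1 replicate. Zfp644 between rd10 and rd2 ranged from -0.03 to 0.04, Mbd5 in rd2 against C3H from -0.04 to 0.06, Nlgn1 there from -0.01 to 0.14, and per host read mmu_circ_0001383 from -0.29 to 0.02 and mmu_circ_0001362 from -0.33 to 0.21. Mbd5 in rd2 against C3H went from -0.00 to 0.03 without TMM, to 0.02 with limma and to 0.00 without a filter or with all 12 samples. Of 195 alternatives for host genes in the 3 comparisons tested, 180 kept their direction and side of the threshold, as did 168 of 175 for the isoforms between rd10 and rd2. Without TMM, Zfp644 in rd10 passed (0.10, adjusted p = 0.0463), and with limma Mbd5 between rd10 and rd2 did not (0.0608). The cause was not tested. Few reads leave wide errors, such as 1.31 log2 units for the Dmxl2 ring of exons 7 to 8.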
